A study of Homo sapiens with 6 samples.

Results

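BRA-binding sites that were found in BMP4-treated cells and had no activin site in their neighbourhood are described here. They were chosen by position from the peak lists of the R&D Systems antibody. A FLyB peak was taken when its midpoint lay more than 50 kb from the midpoint of every FLyA peak on the same chromosome, for chromosomes 1 to 22 and X. The rule selected 4558 of the 23682 FLyB peaks on these chromosomes (19.2%), out of 23687 in the deposited list. They are called far FLyB peaks below. The distance to FLyA is therefore not a finding, and it is given only as a description.

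H9 cells, a widely used line of human embryonic stem cells, were kept for 36 h in FGF2 (20 ng/ml) and LY294002 (10 μM), the latter an inhibitor of PI3 kinase. FLyA medium added 100 ng/ml activin A and gave endoderm progenitors, and FLyB medium added 10 ng/ml BMP4 and gave mesoderm progenitors. Chromatin bound by BRA was isolated and sequenced (ChIP-seq) with the R&D Systems and the Santa Cruz antibody, in 1 library per medium and antibody. All groups thus came from 1 cell line, with 1 library for each medium and antibody. The study counts its experiments with the 2 antibodies as replicates. Here the far FLyB peaks were chosen with 1 antibody, and the other was kept as a separate measure. No test across replicates was run, and no p-value is given. Each value is a count of peaks, or a share of peaks with an exact (Clopper-Pearson) 95% interval. These intervals cover counting error only and treat neighbouring peaks as independent.

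BRA (brachyury, the product of the T gene) is a transcription factor of the T-BOX family. It is made in the primitive streak, the part of the gastrulating embryo through which cells move to form mesoderm and endoderm, and it is needed there for posterior mesoderm. BMP4 acts through SMAD1 and its relatives and favours posterior streak fates, whereas activin A, like its relative NODAL, acts through SMAD2 and SMAD3 and favours anterior fates. A peak is a stretch of DNA in which reads pile up above control DNA. It is taken to mark a place where BRA, or a complex that holds it, was recovered with the antibody, though a single peak can be false.

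Positions are on genome build hg19, which the submitters' processing notes name, and are counted from 1. Genes and DNA sequence of this build were not used here, so no gene is assigned to a site and no motif was searched. Peaks in repeated DNA were not marked or removed either. Every deposited peak is 400 bp wide and carries no height or score. The number of reads behind a peak is therefore unknown, and a site absent from the FLyA list is not shown to be unbound in activin. The Santa Cruz lists did not enter the rule and were used as a second measure. The Santa Cruz FLyA measure is still affected by the rule, which keeps far FLyB peaks away from sites that both antibodies gave in FLyA. The study describes the Santa Cruz experiments as noisier and as having fewer unique reads, and it based its own analyses on the R&D Systems lists. The Santa Cruz lists are short, with 3003 FLyB and 2430 FLyA peaks on these chromosomes. By peak overlap, the Santa Cruz FLyA library stands apart. Only 31.9% of its peaks (30.0 to 33.7%) lay on a peak that the R&D Systems antibody gave in FLyA. Of the Santa Cruz FLyB peaks, 79.1% (77.6 to 80.5%) lay on one that it gave in FLyB. The study itself reports a high correlation of binding between the antibodies in both media.

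The far FLyB peaks lay a median of 94.2 kb from the nearest FLyA peak. The quartiles of this distance were 67.4 and 144.9 kb, and the farthest lay 695.6 kb away. The distances run through the cutoff without a break. The nearest peaks beyond it lay 50026, 50027 and 50035 bp from FLyA, and the nearest peaks left out lay 49981, 49976 and 49966 bp from it. There were 365 peaks between 50 and 55 kb and 396 between 45 and 50 kb. Peaks on both sides of 50 kb thus form a continuous series.

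The Santa Cruz antibody recovered part of the far FLyB peaks in the same medium and almost none in the other. Of the 4558 far FLyB peaks, 375 overlapped a Santa Cruz FLyB peak, a share of 8.23% (7.45 to 9.06%). Over all FLyB peaks this share was 10.0%. A Santa Cruz FLyA peak was met by 12 far FLyB peaks, a share of 0.263% (0.136 to 0.459%). Over all FLyB peaks that share was 2.59%. The rule itself lowers the share in FLyA, since a Santa Cruz FLyA peak that overlaps a R&D Systems FLyA peak cannot lie on a far FLyB peak. Only 1 far FLyB peak lay on peaks of both Santa Cruz lists, 374 lay on a Santa Cruz FLyB peak alone, 11 on a Santa Cruz FLyA peak alone, and 4172 on neither. Most far FLyB peaks seen with the second antibody were thus seen with it in BMP4 alone. This also holds for the FLyB peaks at most 50 kb from FLyA that overlapped no FLyA peak, of which 743 lay on a Santa Cruz FLyB peak alone, 55 on a Santa Cruz FLyA peak alone and 11 on both. It holds as well for FLyB peaks that overlapped a FLyA peak, with 1025, 312 and 223 in the same order, so it is not particular to sites without FLyA.

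The share on Santa Cruz FLyB peaks was highest at sites that overlapped FLyA, and no further fall with distance was seen. Among FLyB peaks that themselves overlapped a FLyA peak it was 14.6% (13.8 to 15.4%). Among those 400 bp to 10 kb away it was 6.89% (6.18 to 7.65%), and among those 10 to 50 kb away it was 7.33% (6.68 to 8.03%). Within the far FLyB peaks it was 8.33% (7.27 to 9.49%) from 50 to 100 kb, 8.02% (6.68 to 9.53%) from 100 to 200 kb and 8.31% (6.25 to 10.8%) beyond 200 kb. The intervals of the far FLyB peaks overlap one another and those of the non-overlapping peaks nearer to FLyA, of which 7.13% (6.65 to 7.64%) lay on a Santa Cruz FLyB peak.

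On Santa Cruz FLyA peaks the shares were lower throughout. They were 6.25% (5.75 to 6.79%) for FLyB peaks that overlapped a FLyA peak, 0.659% (0.448 to 0.934%) from 400 bp to 10 kb and 0.597% (0.416 to 0.829%) from 10 to 50 kb. In the far FLyB peaks they were 0.243% from 50 to 100 kb (6 peaks), 0.340% from 100 to 200 kb (5 peaks) and 0.163% beyond 200 kb (1 peak). The interval of the far FLyB peaks as a whole (0.136 to 0.459%) lies below that of the pooled non-overlapping FLyB peaks at most 50 kb away (0.624%, 0.483 to 0.794%). It overlaps that of the peaks 10 to 50 kb away. The rule partly sets the lower share. A Santa Cruz FLyA peak on a R&D Systems FLyA peak cannot lie on a far FLyB peak, but can lie on a FLyB peak close beside it.

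**Figure D1:**
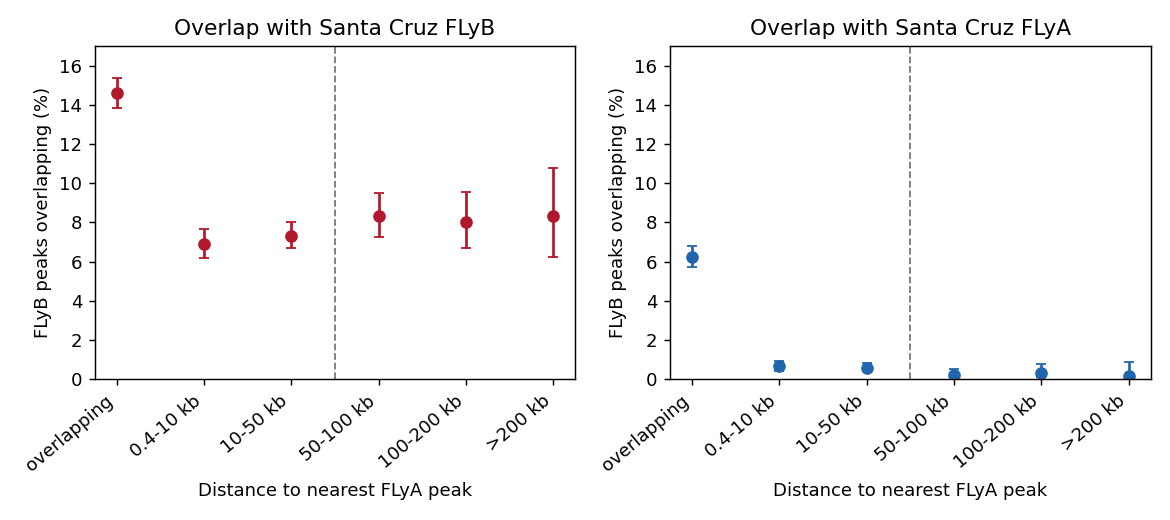
Share of R&D Systems FLyB peaks that overlapped a Santa Cruz FLyB peak (left) or a Santa Cruz FLyA peak (right), in percent, by distance to the nearest R&D Systems FLyA peak. Points are shares, bars are exact 95% intervals, and the dashed line marks 50 kb. Left of it the FLyB share drops from 14.6% to 6.89%, and right of it the 3 classes lie between 8.02% and 8.33%.

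Where the antibodies met, they met closely. The midpoints of the 375 far FLyB peaks and of the Santa Cruz FLyB peaks that overlapped them lay a median of 34 bp apart. Of these far FLyB peaks, 90.1% (338) had the Santa Cruz midpoint within 100 bp and 66.4% within 50 bp. FLyB peaks at most 50 kb from FLyA gave a median of 30 bp and 90.5% within 100 bp. Beside the far FLyB peaks, Santa Cruz peaks were sparse. Another 164 far FLyB peaks (3.60%) overlapped no Santa Cruz FLyB peak but had one within 10 kb, against 7.85% of the other FLyB peaks. A Santa Cruz FLyA peak lay beside 64 far FLyB peaks (1.40%) within 10 kb, against 3.47% of the other FLyB peaks. Peaks of both media were thus sparser there. For FLyA the rule partly sets this, since a Santa Cruz FLyA peak on a R&D Systems FLyA peak cannot lie that near a far FLyB peak.

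**Figure D2:**
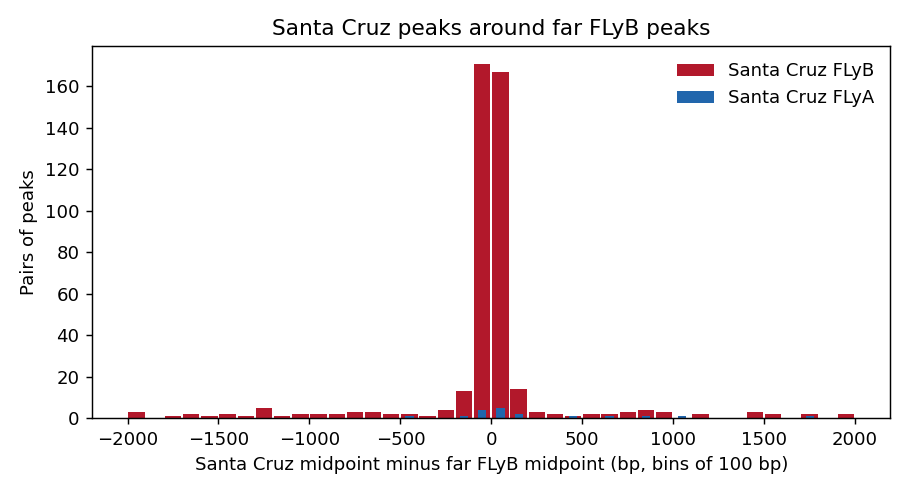
Number of pairs of a far FLyB peak and a Santa Cruz peak by the distance between their midpoints, in bins of 100 bp from 2 kb before to 2 kb after. Red bars are Santa Cruz FLyB peaks and narrow blue bars Santa Cruz FLyA peaks. The bins next to 0 hold 171 and 167 Santa Cruz FLyB peaks, against at most 14 in any other bin.

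The overlap was also counted from the Santa Cruz lists. More than 50 kb from every R&D Systems FLyA peak lay 624 Santa Cruz FLyB peaks (20.8% of the list) and 705 Santa Cruz FLyA peaks (29.0%). Of these 624 Santa Cruz FLyB peaks, 374 lay on a far FLyB peak, a share of 59.9% (56.0 to 63.8%). Of the 705 Santa Cruz FLyA peaks, 12 did, a share of 1.70% (0.883 to 2.95%). These 2 shares are not a like comparison, since the distance to R&D Systems FLyA leaves out every Santa Cruz FLyA peak that the other antibody found in its own medium, and puts no such condition on the Santa Cruz FLyB peaks. Both shares were lower than near FLyA peaks. For Santa Cruz FLyA the same condition partly sets this, since the peaks found by both antibodies in FLyA are all in the near set. Of the 2379 Santa Cruz FLyB peaks at most 50 kb from a FLyA peak, 84.1% (82.6 to 85.6%) lay on a R&D Systems FLyB peak. Of the 1725 Santa Cruz FLyA peaks at that distance, 34.7% (32.5 to 37.0%) did.

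The distance to the Santa Cruz FLyA list was also taken, for Santa Cruz FLyB peaks grouped by the R&D Systems FLyB peak they lay on. Of the 374 Santa Cruz FLyB peaks on a far FLyB peak, 347 (92.8%, 89.7 to 95.2%) were more than 50 kb from every Santa Cruz FLyA peak, and 1 overlapped such a peak. Of the 1250 Santa Cruz FLyB peaks on a FLyB peak that overlapped R&D Systems FLyA, 70.3% (67.7 to 72.8%) were that far from Santa Cruz FLyA, and 17.8% overlapped a Santa Cruz FLyA peak. For the 751 on other FLyB peaks at most 50 kb from R&D Systems FLyA, these shares were 84.2% (81.3 to 86.7%) and 1.60%. The rule partly sets the order of these groups. A Santa Cruz FLyA peak on a R&D Systems FLyA peak cannot lie near a far FLyB peak, but can lie near the other FLyB peaks. The Santa Cruz FLyA list is also sparse, so most places are far from it. Among all Santa Cruz FLyB peaks 80.2% were, and among the 4183 far FLyB peaks without a Santa Cruz FLyB peak 93.6% were.

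The opposite set gives the scale of these shares. By the same rule with the media exchanged, 7379 FLyA peaks (28.5%) lay more than 50 kb from every FLyB peak. A Santa Cruz FLyA peak lay on 1.40% (1.14 to 1.69%) of these far FLyA peaks, and a Santa Cruz FLyB peak on 0.190% (0.104 to 0.318%). Over all FLyA peaks these shares were 3.01% and 5.01%, so that the list of the other medium was met more often there. The rule itself lowers the share of far FLyA peaks on Santa Cruz FLyB peaks. A Santa Cruz FLyB peak that overlaps a R&D Systems FLyB peak, as 79.1% do, cannot lie on a far FLyA peak. In both far sets the second antibody met more sites in the medium in which they were chosen. This order is partly set by the rule and is not a finding. The far FLyB peaks had the higher share in their own medium, at 8.23% against 1.40%. The lower value rests on the Santa Cruz FLyA library with its low match, whose part in the difference was not tested.

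Of the part of the genome that the 4 lists span, 51.2% lies more than 50 kb from every FLyA peak, and the far FLyB peaks are spread thinly over it. Leaving out gaps of over 1 Mb between neighbouring peaks of any list, FLyB peaks stood at 31.3 per Mb within 10 kb of a FLyA peak and at 5.83 per Mb from 10 to 50 kb. Far FLyB peaks stood at 4.10 per Mb from 50 to 100 kb, 3.11 per Mb from 100 to 200 kb and 2.40 per Mb beyond 200 kb. The last value was 1.49 per Mb when the gaps were kept. Santa Cruz FLyB peaks stood at 4.16 per Mb within 10 kb, at 0.611 per Mb from 10 to 50 kb and at 0.540, 0.438 and 0.356 per Mb in the same 3 far classes. For Santa Cruz FLyA peaks the values were 2.61 per Mb within 10 kb, 0.616 per Mb from 10 to 50 kb and 0.525, 0.541 and 0.516 per Mb in the far classes. Beyond 200 kb and with the gaps kept, the Santa Cruz densities were 0.221 per Mb in FLyB and 0.320 per Mb in FLyA. All 3 lists were thus much denser within 10 kb of a FLyA peak than from 10 to 50 kb. Beyond 50 kb both FLyB lists went on thinning, whereas the Santa Cruz FLyA list fell clearly only with the gaps kept. Beyond 200 kb these densities rest on 91 Santa Cruz FLyB and 132 Santa Cruz FLyA peaks. No interval was taken, and the difference between the lists was not tested.

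**Figure D3:**
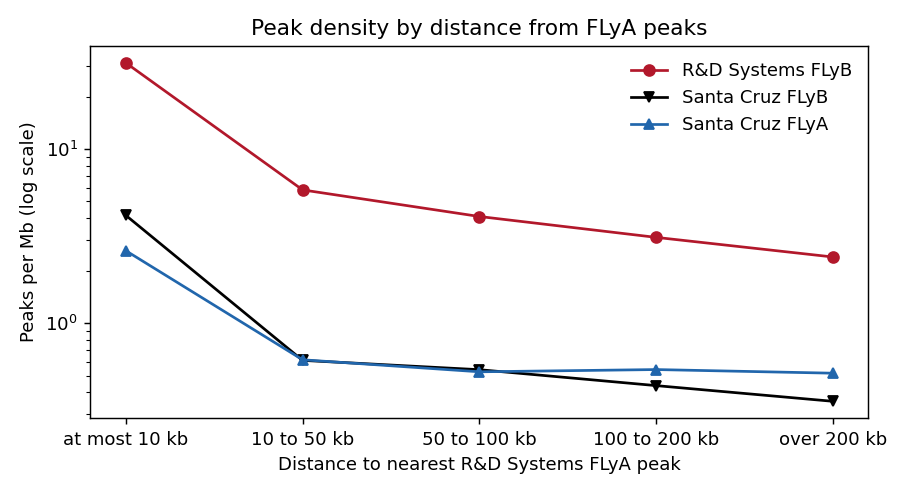
Peaks per Mb (log axis) by distance to the nearest R&D Systems FLyA peak, with gaps of over 1 Mb left out. Circles are R&D Systems FLyB peaks, which are the far FLyB peaks from 50 kb on, and triangles are the Santa Cruz lists. R&D Systems FLyB falls from 31.3 to 2.40 per Mb, and Santa Cruz FLyA falls from 2.61 to 0.616 per Mb at 10 to 50 kb and lies between 0.516 and 0.541 per Mb beyond 50 kb.

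Most far FLyB peaks stood apart from each other. Another far FLyB peak lay within 10 kb of 1062 of them, a share of 23.3% (22.1 to 24.6%). Over all FLyB peaks, 40.6% had another FLyB peak within that distance. By construction, only other far FLyB peaks were counted as neighbours of a far FLyB peak. With any other FLyB peak counted, the share was 24.0% (22.7 to 25.2%), and the median distance to the next was 51.4 kb. The rule also keeps far FLyB peaks away from FLyA, and its part in the lower share was not tested. Far FLyA peaks, limited in the same way, had another within 10 kb in 17.3% of cases (16.4 to 18.1%). Within 50 kb the shares of both far sets were 42.9% and 42.8%. The median distance to the next peak of the same set was longer for far FLyB peaks, at 82.2 kb, than for far FLyA peaks, at 71.6 kb. Far FLyB peaks thus had near neighbours more often, but did not lie closer together in general, and the far FLyA set is larger. Among far FLyB peaks, 5 pairs overlap each other.

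The share on Santa Cruz FLyB peaks was also taken by the company a far FLyB peak had. A Santa Cruz FLyB peak lay on 10.5% (8.76 to 12.6%) of those with another far FLyB peak within 10 kb and on 7.52% (6.67 to 8.45%) of those without. Neighbouring peaks are the least independent, so the interval of the first share is too narrow. The 4558 peaks fall into 2694 stretches without a FLyA peak, between neighbouring FLyA peaks or outside the outermost FLyA peak of a chromosome, of which 1645 hold a single far FLyB peak. Of these single peaks 6.69% (5.53 to 8.00%) lay on a Santa Cruz FLyB peak. Where a stretch held 2 far FLyB peaks, 3 or 4, and 5 or more, the shares were 9.07% (7.50 to 10.8%), 8.98% (7.41 to 10.7%) and 9.44% (7.07 to 12.3%). Each of these 3 intervals overlaps that of the single peaks. Distance to FLyA did not separate far FLyB peaks with a Santa Cruz FLyB peak from those without one, at medians of 94.1 and 94.2 kb.

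Stretches with many far FLyB peaks were few. There were 86 stretches with 5 or more, holding 519 far FLyB peaks. The richest lay on chromosome 2, between FLyA midpoints at 134965286 and 135530551. Its 565.3 kb held 13 far FLyB peaks, from chr2:135105343-135105742 to chr2:135463461-135463860, and none of the Santa Cruz FLyA peaks. Of these 13, only chr2:135237274-135237673 lay on a Santa Cruz FLyB peak. Near the middle, 4 of them stood together within 5.30 kb, from 135258103 to 135263401.

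The next stretch, on chromosome 5 from 162865058 to 164564978, was 1699.9 kb long and held 12. From its left end, 5 of them lay at 96.9 to 158.0 kb and 6 at 1039.8 to 1386.8 kb. Between these groups stood chr5:163500189-163500588 alone, 635.3 kb from the nearest FLyA peak. That peak and chr5:164076358-164076757 each lay on a Santa Cruz FLyB peak, with midpoints 67 and 8 bp apart. The third, on chromosome 6 from 150312105 to 151018696, held 10 far FLyB peaks, of which 2 lay on a Santa Cruz FLyB peak, and 1 Santa Cruz FLyA peak that lay on none of them. Stretches on chromosomes 2, 3, 12 and 17 held 8 each. Of these, the stretch on chromosome 17 had 1 far FLyB peak on a Santa Cruz FLyB peak, and the others had none.

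**Figure D4:**
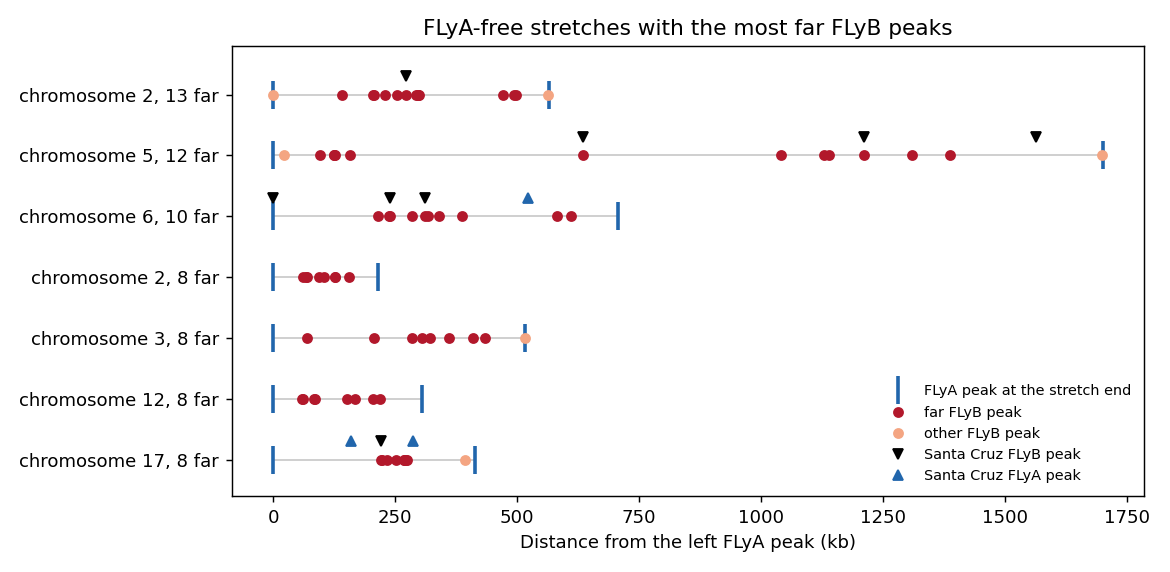
The 7 stretches between neighbouring FLyA peaks with the most far FLyB peaks, drawn to scale in kb from the FLyA peak at the left end. Red circles are far FLyB peaks, pale circles other FLyB peaks, blue bars the bounding FLyA peaks, black triangles Santa Cruz FLyB peaks and blue triangles Santa Cruz FLyA peaks. The stretches hold 13, 12, 10, 8, 8, 8 and 8 far FLyB peaks, and no Santa Cruz FLyA peak in them lies on one.

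At short range, the group with the most far FLyB peaks was on chromosome 20. Joining far FLyB peaks at most 10 kb apart gave 3980 groups, of which 3496 were single peaks, 412 were pairs, 56 held 3, 12 held 4, 3 held 5 and 1 held 7. The group of 7 at chr20:57780011-57793670 spans 13.7 kb and lies 50.6 kb from the nearest FLyA peak at its near end. The Santa Cruz antibody found 3 of its 7 peaks in FLyB. These were chr20:57786392-57786791, chr20:57787838-57788237 and chr20:57790823-57791222, with midpoints 7, 15 and 292 bp from the Santa Cruz midpoints. The FLyA stretch around it, 138.0 kb long, held no Santa Cruz FLyA peak.

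Groups of 5 lay at chr1:38917284-38927186, chr6:125194188-125210157 and chr7:129996241-130028322. On a Santa Cruz FLyB peak lay 1, 0 and 2 of their members. The group on chromosome 6 was the most distant of these from FLyA, at 215.7 kb. Well-populated groups of far FLyB peaks were thus found both with and without the second antibody.

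In 4 stretches, 3 far FLyB peaks lay on a Santa Cruz FLyB peak, and no stretch had more. They are the stretch of the chromosome 20 group and 3 others. The stretch on chromosome 1 from 207628052 to 208240126 held 7 far FLyB peaks, that on chromosome 13 from 43715345 to 43957812 held 4, and that on chromosome 15 from 57839851 to 58342269 held 6. Only the stretch on chromosome 15 held a Santa Cruz FLyA peak. A further 16 stretches had 2 such peaks, 331 had 1 and 2343 had none.

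The far FLyB peaks found with both antibodies reached deep into FLyA-free DNA. The most distant was chr4:32245513-32245912, 665.9 kb from the nearest FLyA peak and 1043 kb from the next FLyB peak, with a Santa Cruz FLyB midpoint 42 bp away. A Santa Cruz FLyA peak lay 43.8 kb from it. The 2 peaks on chromosome 5 named above came next, at 635.3 and 488.4 kb. They were followed by chr7:9800765-9801164 at 413.6 kb, chr21:31221880-31222279 at 390.2 kb, chr2:3994679-3995078 at 388.9 kb and chr6:61914095-61914494 at 374.6 kb. The last 3 of the 10 most distant were chr16:49237228-49237627 at 353.7 kb, chr12:91134383-91134782 at 337.9 kb and chr19:31401485-31401884 at 326.4 kb. In all 10 the Santa Cruz FLyB midpoint lay within 80 bp. The peak on chromosome 19 had another FLyB peak 2.16 kb away, and the peak on chromosome 12 had none within 1175 kb. Of the 10 far FLyB peaks most distant from FLyA whatever the antibody, 2 lay on a Santa Cruz FLyB peak, those on chromosomes 4 and 5 named first.

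The 12 far FLyB peaks that met a Santa Cruz FLyA peak were scattered over 9 chromosomes. They are sites for which the antibodies differ in activin. The closest match was chr5:49541440-49541839, whose midpoint was 1 bp from the Santa Cruz FLyA midpoint and 91.0 kb from the nearest R&D Systems FLyA peak. It was followed by chr5:58335376-58335775 at 9 bp and chr10:79899101-79899500 at 21 bp. The peak at chr9:66971009-66971408 was the only 1 on Santa Cruz peaks of both media. Whether any of these sites lies in repeated DNA was not examined, so a close match alone does not make it a BRA site. The farthest of the 12 from R&D Systems FLyA was chr3:190245150-190245549, at 288.4 kb, with midpoints 181 bp apart. The 11 others lay between 55.7 and 182.9 kb from R&D Systems FLyA.

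Every chromosome held far FLyB peaks, in unequal shares. They made up between 9.11% of the FLyB peaks, on chromosome 17, and 26.0%, on chromosome 21. Chromosome 17 also had the most FLyA peaks for its length, 17.2 per Mb, and chromosome 21 the fewest, 6.14 per Mb. The rule partly sets this, since denser FLyA peaks tend to leave less DNA more than 50 kb from one. Counted by length, far FLyB peaks ranged from 1.18 per Mb on chromosome X to 1.90 per Mb on chromosome 22, with 1.86 on chromosome 17. Chromosome 17 was thus low in the share of its FLyB peaks that were far, and near the top in far FLyB peaks per Mb. On all 23 chromosomes a smaller share of the FLyB peaks than of the FLyA peaks was far from the other medium, over the whole 19.2% against 28.5%. The chromosomes come from the same pair of libraries and are not replicates. The FLyA list is the longer, at 25858 peaks against 23682, and the part of list length in this difference was not tested.

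The Santa Cruz FLyB share of far FLyB peaks ranged from 5.06% on chromosome 19 (4 of 79 peaks) to 15.3% on chromosome 20 (18 of 118 peaks, 9.30 to 23.03%). On chromosome 20 alone of the 23 did the 95% interval leave out the share over all chromosomes. With 23 intervals at 95%, about 1 is expected to do so from counting error. On chromosome 20 the group of 7 named above gave 3 of the 18.

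**Figure D5:**
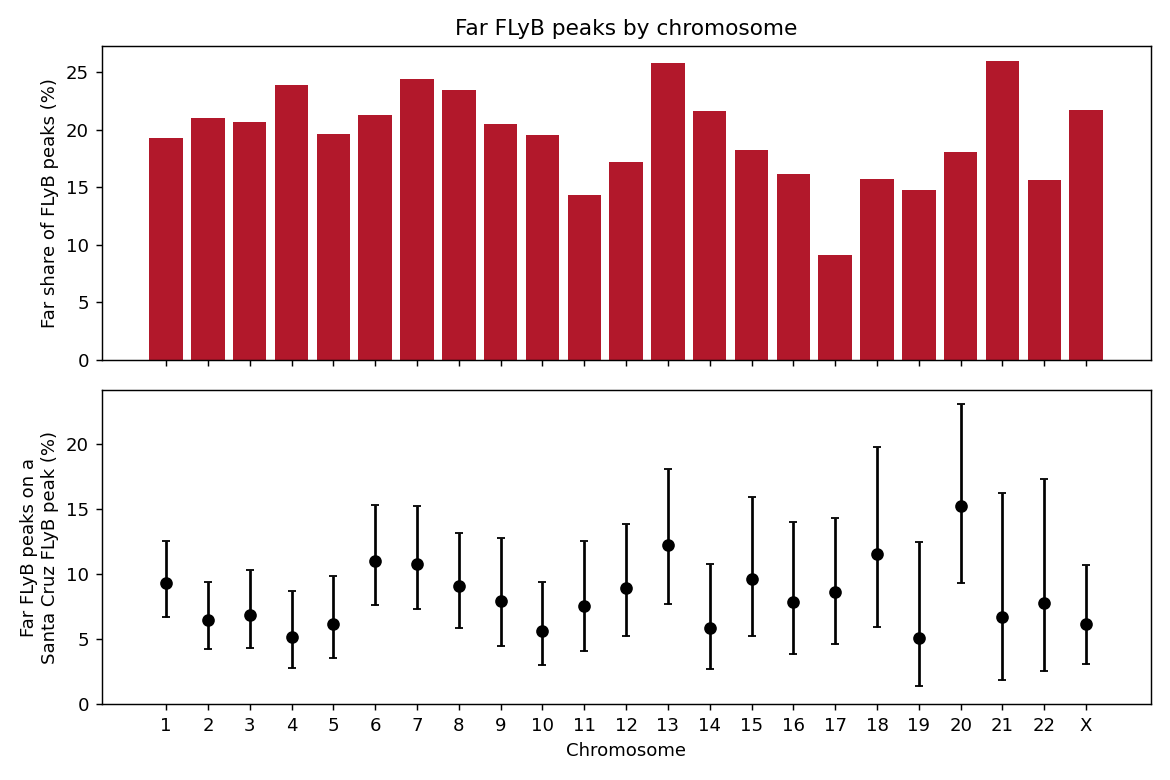
Upper panel: share of each chromosome's R&D Systems FLyB peaks that are far FLyB peaks, in percent. Lower panel: share of those far FLyB peaks on a Santa Cruz FLyB peak, in percent, with exact 95% intervals. Chromosome 17 is lowest above, at 9.11%, and chromosome 20 highest below, at 15.3%.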

How the data were processed

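ChIP-seq peak lists of BRA from 4 libraries were analysed, and the 2 input DNA libraries were not used here. By the study's methods, reads came from an Illumina Genome Analyzer II and MACS was the peak finder. The submitters' processing notes name Bowtie 0.12.7 and build hg19. The authors deposited positions only (chromosome, start, end), 1 list per library, and no other unit. The Santa Cruz track lines name a threshold of 1e-12. For the R&D Systems lists no threshold is named. The study speaks of enrichment over input and of fewer unique reads with the Santa Cruz antibody. Which input each list was called against and the read numbers are not given in the sources used here.

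Distances between midpoints were computed in NumPy 2.4.6 under Python 3.11.15, and intervals in SciPy 1.17.1. Overlap meant at least 1 bp, and overlap counts of the far FLyB peaks were checked with bedtools 2.31.1. Figures used matplotlib 3.10.9. The functions were tested on simulated data. Density used the span between the first and last peak of the 4 lists on each chromosome. The members and measures were chosen with earlier results of these data known. The design also set out gene and motif counts, lists of genes and a rule for named genes. They need hg19 genes and sequence and were not run, since the reference tables at hand are of GRCh38. The stretches, groups and single sites that are named were ranked by their counts or distances.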

Additional observations from a re-analysis of the deposited data

How the results depend on the processing

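Depth is unknown, so a site missing from a list is not shown to be unbound. Of 22 other settings set out with the design, 15 kept their value within the 95% interval of the reported share (for the number of far FLyB peaks, within 1.5 times), among them every setting for the shares on Santa Cruz peaks, which ran from 7.77% to 8.67% in FLyB and from 0.263% to 0.355% in FLyA. The number of far FLyB peaks was 7332 with a distance of over 25 kb, 2085 with over 100 kb and 614 with over 200 kb, by construction. The share with another far FLyB peak within 10 kb became 16.9% within 5 kb and 30.2% within 20 kb, also by construction, 25.01% for peaks over 25 kb from FLyA and 20.2% for peaks over 100 kb from it. With FLyA peaks of both antibodies, 4264 far FLyB peaks were left, and in alternatives chosen after seeing the data 8.16% of them lay on a Santa Cruz FLyB peak and 22.6% had another within 10 kb. The alternatives for genes, gene starts and motifs were not run.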
